A study of Rattus norvegicus with 24 samples.

Results

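The response of neonatal microglia to lipopolysaccharide (LPS) after intermittent hypoxia (IH) was measured in 12 RNA-seq libraries of the 24 in the series. All samples labelled IH were taken, 6 from pups injected with LPS and 6 from pups injected with vehicle, and each injection was represented by 3 males and 3 females. The animals were Sprague-Dawley rat pups at postnatal day 9. They had been kept with their dams for 8 days from P1 on in oxygen that alternated in 2-min cycles between 10.5% and 21% for 8 h a day, so the vehicle pups carried the same hypoxic history as the LPS pups. The injection was given intraperitoneally 16 h after the last exposure and brains were taken 3 h later. The sample labels give the LPS as 0.1 mg/mL and the vehicle as saline, whereas the series text gives the dose per kg of body weight and the study's methods name HBSS as the vehicle. The other 12 libraries, with the same injections after room air (normoxia, Nx), are used only for values set beside those after IH. RNA came from cells held on magnetic beads by an antibody to CD11b/c, which also marks other myeloid cells, and from brain without the cerebellum and olfactory bulbs. The sources used here do not say whether a sample is 1 pup or a pool, or which pups shared a litter. No marker check of the cell type was made, since the count files carry Ensembl identifiers and only 21 of these could be paired with a gene symbol.

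LPS is a cell wall component of Gram-negative bacteria that is recognised by the receptor Tlr4 with its cofactors Cd14 and Ly96. Signalling from this receptor frees the transcription factor NF-κB to enter the nucleus, and a second branch leads to type I interferon and, through it, to STAT factors and interferon-regulated chemokines. Microglia, the resident macrophages of the brain, answer LPS within hours by transcribing cytokines, chemokines, adhesion molecules and inducible enzymes.

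The genes that can be named are 12 targets of NF-κB and 9 others, all taken from the study's own list of genes that differed between IH and Nx samples. The 12 targets were listed by the study as lower in LPS-treated females after IH than after Nx. They are therefore not independent evidence of how IH and Nx differ, and, as the female IH LPS libraries took part in that choice, nor of how the sexes differ. The study does not name a comparison of LPS with vehicle as a step in listing them. It does describe them as signalling targets stimulated by LPS, and the female IH LPS libraries of that choice are an arm here. Their rise with LPS is therefore a description and no independent result. The promoters of the targets, 250 bases before to 50 bases after the transcription start of RefSeq genes on GRCr8, were read for a κB-like motif, because this is the sequence that NF-κB is known to bind. Reads had been counted on rn6, so these coordinates are of another build than the counts. A promoter was found for 16 of the 21 genes and 10 of the 12 targets. The letters GGG, any 3 bases and TTCC, on either strand and with overlapping matches allowed, occurred in 4 of these 10 targets and in 0 of the 6 other genes, against 5.37% of 33469 rat promoters of the same length. The 4 promoters with a match are those of Cxcl10 (chr14:15988816-15989115, plus strand), Cxcl1 (chr14:17479272-17479571, minus strand), Il6 (chr4:5894526-5894825, minus strand) and Cd83 (chr17:21112628-21112927, minus strand). They are printed 5′ to 3′ on the strand of the gene, with the matches in capitals.
Cxcl10: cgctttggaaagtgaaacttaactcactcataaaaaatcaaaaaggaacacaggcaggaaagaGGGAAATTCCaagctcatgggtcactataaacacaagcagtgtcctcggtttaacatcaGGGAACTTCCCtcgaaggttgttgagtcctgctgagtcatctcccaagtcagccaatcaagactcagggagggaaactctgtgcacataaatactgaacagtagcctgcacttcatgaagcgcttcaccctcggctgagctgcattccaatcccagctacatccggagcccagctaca
Cxcl1: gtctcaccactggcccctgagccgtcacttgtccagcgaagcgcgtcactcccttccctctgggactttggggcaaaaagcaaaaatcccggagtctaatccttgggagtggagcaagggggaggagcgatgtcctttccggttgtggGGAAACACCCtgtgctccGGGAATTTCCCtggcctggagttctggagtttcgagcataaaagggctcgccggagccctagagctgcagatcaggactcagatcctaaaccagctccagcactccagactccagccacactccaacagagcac
Il6: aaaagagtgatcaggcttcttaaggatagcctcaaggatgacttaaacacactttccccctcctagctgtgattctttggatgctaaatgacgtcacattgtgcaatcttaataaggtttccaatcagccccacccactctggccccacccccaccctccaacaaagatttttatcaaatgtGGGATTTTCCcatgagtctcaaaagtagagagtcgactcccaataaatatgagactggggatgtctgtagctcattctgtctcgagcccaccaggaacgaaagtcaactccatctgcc
Cd83: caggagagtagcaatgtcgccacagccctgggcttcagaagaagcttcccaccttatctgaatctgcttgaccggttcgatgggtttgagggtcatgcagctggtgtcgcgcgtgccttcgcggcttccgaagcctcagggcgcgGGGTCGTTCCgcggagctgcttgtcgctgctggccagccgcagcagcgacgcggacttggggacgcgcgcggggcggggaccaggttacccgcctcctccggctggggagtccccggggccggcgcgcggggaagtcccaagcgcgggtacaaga
In Cxcl10 the matches began 187, 128 and 127 bases before the start, and the last 2 overlap as the same letters read on both strands. In Cxcl1 they began 102, 84 and 83 bases before the start, again with the last 2 overlapping. Il6 had a single match at 68 bases and Cd83 a single match at 105 bases before the start. An interferon-response motif, GAAA, any 2 bases and GAAA, was found in Cxcl10 and in Gpr15l and occurs in 3.92% of promoters, and the STAT motif TTCNNNGAA was found in Cxcl9, Irf1 and Icam1 and occurs in 8.87%. The matches describe these windows of sequence and were not tested for binding.

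Between 6624453 and 8548714 reads were counted on genes in the 12 libraries, with a median of 7709106. CPM is a count scaled to a common library size, here with TMM factors that correct for library composition. No pair of replicates held the same library, since their counts differed by far more than sampling noise, with a chi-square of at least 7.81 per degree of freedom. In multidimensional scaling, the first dimension took 30.3% of the variance and separated the vehicle from the LPS libraries, and the second took 17.0% and separated the sexes. All 6 vehicle libraries lay between -0.97 and -0.76 on the first dimension. Of the LPS libraries, male IH LPS replicate 3 stood apart at 0.085, and the other 5 lay between 0.54 and 1.32. The sources used here do not record how complete each injection was. Whether this library had the full stimulus was not tested, and the pooled and male values count it as LPS, as labelled. Counts of genes called and the values of the named genes that moved without this library are given below.

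**Figure D1:**
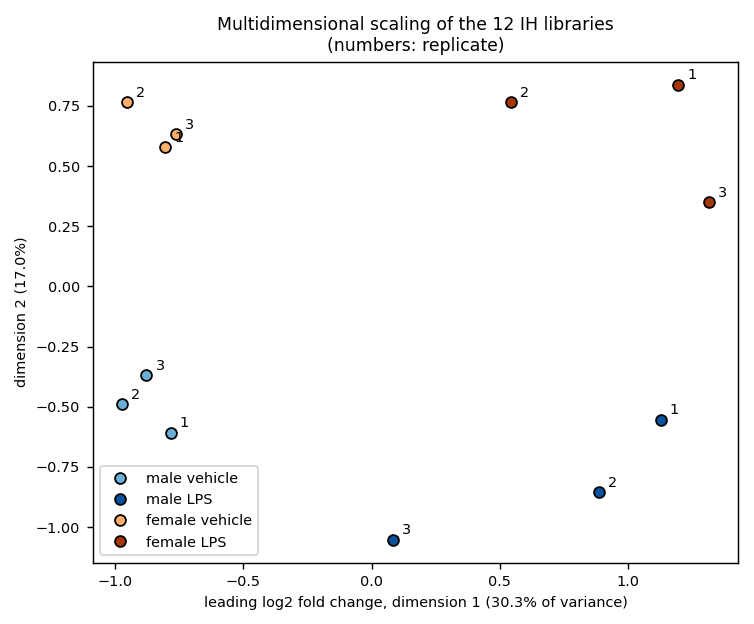
Multidimensional scaling of the 12 IH libraries, with the leading log2 fold change on both axes and each point a library numbered by replicate. LPS libraries lie to the right of all vehicle libraries, and male IH LPS replicate 3 is the LPS library nearest to them, at 0.085 on the first dimension.

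LPS changed 864 of 12860 tested genes after IH, 6.72% of those tested, with 613 raised (4.77%) and 251 lowered (1.95%) (edgeR quasi-likelihood F test with sex as covariate, Benjamini-Hochberg FDR below 0.05). Raised genes had the larger changes. Their log2 fold changes had a median of 1.04 and reached 7.82, against a median of -0.69 and a lowest value of -7.65 among lowered genes. A change of at least 2-fold was found in 322 raised and 71 lowered genes, of at least 4-fold in 138 and 10, and of at least 16-fold in 31 and 2. The CPM values of the 2 lowered genes past 16-fold overlapped between the groups. As these are bulk samples, fewer cells of a type and less RNA per cell cannot be told apart. Over all tested genes the median log2 fold change was -0.0049, a centre that the TMM scaling itself sets.

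The 6 LPS and the 6 vehicle values did not overlap for 316 of the raised and 101 of the lowered genes, and this was true of 3.68% of all tested genes (2.61% with LPS higher and 1.07% with LPS lower). Among the raised genes, 78 (12.7%) had a mean below 1 CPM in the vehicle libraries, against 986 (7.67%) of all tested genes, and 3 of the 78 had no count in any of them. Such genes can pass the filter on low counts through their LPS libraries, so the share is a description. The raised genes together took between 3.75% and 3.91% of all counts in the vehicle libraries and between 4.48% and 8.29% in the LPS libraries. The lowered genes took between 1.36% and 1.74% in vehicle and between 0.805% and 1.09% in LPS libraries. Both shares describe genes selected for this difference. The LPS library nearest to vehicle in both was male IH LPS replicate 3.

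The number of genes called depended on single libraries. Without male IH LPS replicate 3 it was 1650, of which 949 were raised and 701 lowered, and 851 of the 864 genes were among them. It fell to 537 without female IH LPS replicate 1, 540 without female IH LPS replicate 3, 539 without female IH replicate 1, 573 without female IH replicate 2 and 551 without male IH replicate 2. DESeq2 called 1316 genes.

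**Figure D2:**
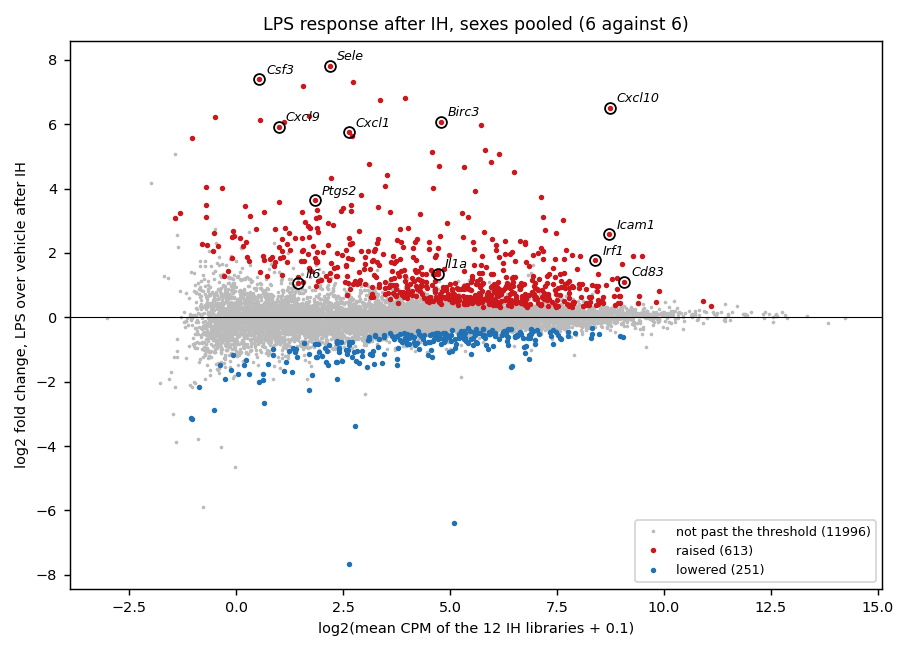
Log2 fold change of LPS over vehicle after IH for each of the 12860 tested genes (y axis) against mean expression over the 12 libraries on a log2 scale (x axis). Red points are the 613 raised and blue points the 251 lowered genes, and open circles mark the 12 NF-κB targets, all of which are raised.

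All 12 NF-κB targets rose with LPS after IH, where 4.77% of tested genes were called raised. Their pooled log2 fold changes ranged from 1.05 in Il6 to 7.82 in Sele, with a median of 4.69, or 4.48 with Csf3 at the bound its counts allow. LPS and vehicle values did not overlap in 9 of the 12, a separation with LPS higher that 2.61% of tested genes showed. The exceptions were Il1a, Il6 and Cxcl9. All 12 passed the filter on low counts, but 5 of them, Csf3, Cxcl1, Cxcl9, Ptgs2 and Sele, passed it only with the help of LPS libraries, which favoured their call and their separation beforehand, so the counts over the 12 are a description. Of the 7 that the vehicle libraries alone would have passed, 5 separated. Together the 12 genes took between 0.0597% and 0.0750% of counts in vehicle and between 0.0832% and 0.494% in LPS libraries. With 1 library left out at a time, between 10 and 12 of them were called. Their median ran from 3.95 without male IH LPS replicate 2, where 10 were called, to 5.02 without male IH LPS replicate 3, where all 12 were called.

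**Figure D3:**
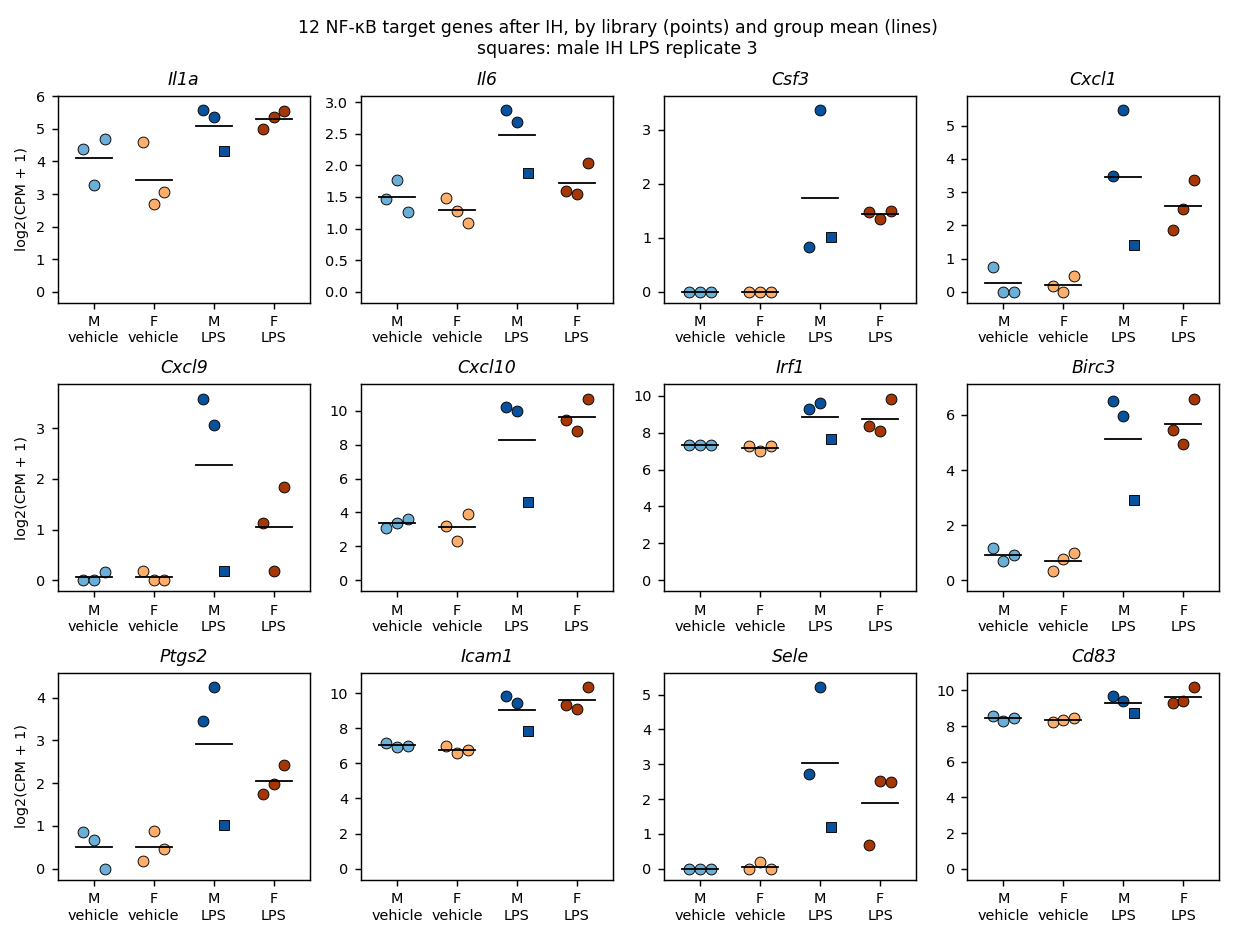
Expression of the 12 NF-κB targets in each of the 12 IH libraries, as log2(CPM + 1), with points for libraries, lines for group means and squares for male IH LPS replicate 3. In Cxcl10 this library is at 23.1 CPM, and the other 5 LPS libraries are at 440 CPM or more.

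Chemokines of the interferon-responsive group were among the most strongly raised. Cxcl10 (ENSRNOG00000022256), a ligand of the chemokine receptor Cxcr3, had 3.99, 8.81 and 14.1 CPM as lowest, median and highest value in vehicle and 23.1, 852 and 1682 CPM in LPS libraries. The LPS values were 1187, 1015 and 23.1 CPM in males and 689, 440 and 1682 CPM in females, all above every vehicle value, and male replicate 3 was far below the others. The log2 fold change was 6.51 ± 0.76 (SE, adjusted p = 2.48e-04, edgeR), and 6.77 ± 0.38 (SE) without that library. Cxcl9 (ENSRNOG00000022242), another Cxcr3 ligand, had at most 0.139 CPM in any vehicle library and between 0.128 and 11.0 CPM in LPS libraries, with a median of 1.89 CPM. Male replicate 3 and female replicate 2 stayed within the vehicle range. The 6 vehicle libraries held 2 counts of Cxcl9 and the LPS libraries 170, a ratio of 83.2 with a 95% counting interval of 22.7 to 692 (adjusted p = 0.00685, edgeR). Its fitted log2 fold change was 5.93, and 6.66 without female IH replicate 1. Irf1 (ENSRNOG00000008144), a transcription factor that acts on interferon-regulated genes, was counted in vehicle at 127, 156 and 162 CPM. It had 202, 469 and 918 CPM in LPS libraries, without overlap, a log2 fold change of 1.77 ± 0.32 (SE, adjusted p = 0.00406, edgeR).

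The neutrophil-directed genes Cxcl1 and Csf3 had few or no counts without LPS. Cxcl1 (ENSRNOG00000002802), a chemokine for neutrophils, had at most 0.680 CPM in vehicle, where 3 of 6 libraries held no count. It had 1.66, 6.98 and 43.2 CPM as lowest, median and highest value in LPS libraries, and the groups did not overlap. The log2 fold change was 5.74 ± 0.92 (SE, adjusted p = 0.00192, edgeR), and it was 4.75 without male IH LPS replicate 2 and 6.41 without male IH replicate 1. Csf3 (ENSRNOG00000008525), which encodes the granulocyte growth factor G-CSF, had no count in the 6 vehicle libraries and 122 counts in the LPS libraries, between 0.775 and 9.31 CPM. Against a floor of 3 counts over the vehicle group this is at least 39.8-fold higher (adjusted p = 0.0105, edgeR). Male IH LPS replicate 2 held 67 of these counts, and without it the bound was 21.2-fold (adjusted p = 0.00174, edgeR). The highest value of both genes was in male replicate 2, where Cxcl1 was at 43.2 CPM against at most 10.2 CPM in the other LPS libraries, and Csf3 at 9.31 CPM against at most 1.82 CPM.

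The cytokines Il1a and Il6 had the weakest support of the 12. Il1a (ENSRNOG00000004575), an alarmin of the interleukin 1 family, had 5.41, 14.2 and 24.6 CPM in vehicle and 19.0, 40.2 and 46.7 CPM in LPS libraries. The overlap came from male IH LPS replicate 3 at 19.0 CPM, and the other 5 LPS values lay above every vehicle value. The log2 fold change was 1.35 ± 0.36 (SE, adjusted p = 0.0379, edgeR). Il6 (ENSRNOG00000010278), an acute-phase cytokine, had few counts, with 1.13, 1.60 and 2.41 CPM in vehicle and 1.92, 2.90 and 6.33 CPM in LPS libraries. Female LPS replicates 1 and 2 lay within the vehicle range, and the other 4 LPS libraries lay above it. Its log2 fold change was 1.05 ± 0.29 (SE, adjusted p = 0.0429, edgeR). Each of the 2 calls was lost on leaving out any of 9 of the 12 libraries, while the log2 fold changes stayed between 1.16 and 1.65 for Il1a and between 0.89 and 1.17 for Il6. For Il1a the adjusted p then reached 0.0897 (edgeR), and only without female IH replicate 1, male IH replicate 3 or male IH LPS replicate 3 did the gene pass. For Il6 it reached 0.104 (edgeR), and the gene passed only without female IH replicate 1, female IH LPS replicate 2 or male IH LPS replicate 3.

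The adhesion molecules Icam1 and Sele and the surface protein Cd83 all rose. Icam1 (ENSRNOG00000020679), the ligand of leukocyte β2 integrins, had 96.1, 124 and 142 CPM in vehicle and 228, 663 and 1289 CPM in LPS libraries, without overlap. Its log2 fold change was 2.58 ± 0.31 (SE, adjusted p = 2.57e-04, edgeR). Sele (ENSRNOG00000002723), E-selectin, a molecule known from activated endothelium, had 1 count in the 6 vehicle libraries and 391 in the LPS libraries, a ratio of 383 with a 95% counting interval of 68.3 to 15153 (adjusted p = 0.00179, edgeR). Its LPS values ran from 0.595 to 36.1 CPM, and male replicate 2 held the highest, with at most 5.55 CPM in the others. Without that library, which held 260 of the counts, the ratio was 152 with an interval of 26.7 to 6032. The fitted log2 fold change of Sele was 7.82, and it was 6.46 without male IH LPS replicate 2. Without female IH replicate 2, which held the only vehicle count, the fitted value of 9.27 is set against 0 counts and does not measure a size. Cd83 (ENSRNOG00000018092), a surface protein of activated antigen-presenting cells, had the highest CPM of the 12 in vehicle, at 296, 338 and 381 CPM. It had 421, 685 and 1160 CPM in LPS libraries, without overlap, a log2 fold change of 1.11 ± 0.18 (SE, adjusted p = 0.00235, edgeR).

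Birc3 (ENSRNOG00000005731), an inhibitor of apoptosis that also acts in NF-κB signalling, had the smallest p of the 12. It had 0.278, 0.800 and 1.22 CPM in vehicle and 6.51, 51.9 and 95.3 CPM in LPS libraries, so that even the lowest LPS library, male replicate 3, lay above every vehicle library. The log2 fold change was 6.07 ± 0.62 (SE, adjusted p = 8.85e-05, edgeR), and 6.34 ± 0.36 (SE) without that library. Ptgs2 (ENSRNOG00000002525), the inducible cyclooxygenase of prostaglandin synthesis, had 0, 0.490 and 0.854 CPM in vehicle and 1.02, 3.68 and 17.9 CPM in LPS libraries. The lowest LPS value, again in male replicate 3, lay just above the highest vehicle value. Its log2 fold change was 3.65 ± 0.69 (SE, adjusted p = 0.0058, edgeR).

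Of the genes that could not be named, the 2 raised and the 2 lowered genes with the smallest p are given by identifier. ENSRNOG00000046699 had between 0.762 and 2.28 CPM in vehicle and between 32.7 and 63.6 CPM in LPS libraries, and male IH LPS replicate 3 held the highest of these values. Its log2 fold change was 5.12 ± 0.27 (SE, adjusted p = 2.24e-07, edgeR). ENSRNOG00000005871 rose from at most 9.01 CPM in vehicle to between 59.1 and 116 CPM in LPS libraries, where male replicate 3 was at 75.7 CPM. The pooled test that chose these genes counted male replicate 3 as LPS and so favours genes in which it lies with the other LPS libraries. ENSRNOG00000002089 fell from between 143 and 211 CPM to between 52.3 and 91.2 CPM, and male replicate 3 held the highest LPS value. ENSRNOG00000009227 fell from between 4.03 and 19.4 CPM to between 0.238 and 2.17 CPM, with male replicate 3 again the highest.

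To place each LPS library, genes were called without it and its value was expressed as a percentage of the way from the mean of the vehicle libraries (0%) to the mean of the other LPS libraries (100%). Male replicate 3 lay at a median of 27.7% over the 949 raised genes and 6.43% over the 701 lowered genes. It stayed within the vehicle range for 35.0% of the raised and 47.2% of the lowered genes. It lay past 75% for 19.4% of the raised genes, and the corresponding share in female replicate 2, the next lowest library, was 39.5%. Medians in the other 5 libraries were between 62.7% and 137% for raised and between 58.6% and 122% for lowered genes, lowest in female replicate 2 and, for raised genes, highest in female replicate 3. Among the 12 targets the position of male replicate 3 ran from 5.96% in Cxcl9 to 64.5% in Il6. Its total count, 8548714, was the highest of the 12 libraries, and its shares of alignments without a unique place, 13.4%, and outside genes, 15.1%, lay within the range of the other 11. Its TMM factor, 0.917, and its number of genes with a count, 15165, were the lowest of the 12, where the others had at least 0.948 and 15209. The part of these measures in its position was not tested.

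**Figure D4:**
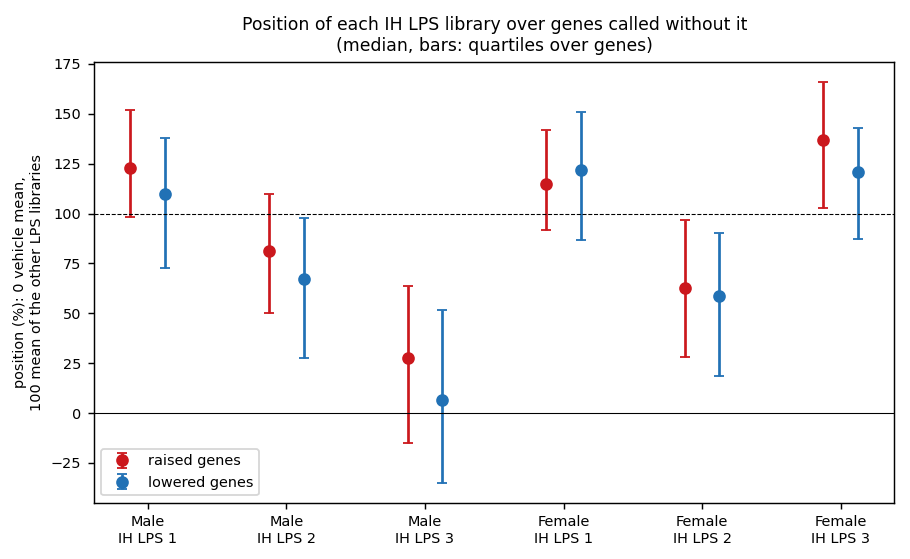
Position of each IH LPS library between the vehicle mean (0%) and the mean of the other LPS libraries (100%), as median (points) and quartiles (bars) over genes called without that library, red for raised and blue for lowered genes. Male IH LPS replicate 3 lies at 27.7% and 6.43%, and the other 5 libraries have medians of 58.6% or more.

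Within males alone, 3 LPS against 3 vehicle libraries, 62 genes passed, 0.482% of those tested, of which 59 rose (0.459%) and 3 fell (0.0233%). Within females 305 genes passed, 2.37% of those tested, of which 249 rose (1.94%) and 56 fell (0.435%). All 59 genes called in both sexes changed in the same direction, and they make up 95.2% of the male and 19.3% of the female calls. The larger number in females is not a larger response by itself. Of the 12860 genes, 0 differed between the sexes in the effect of LPS (edgeR quasi-likelihood F test of the difference, FDR below 0.05), and DESeq2 called 1. An unadjusted p below 0.05 was found in 206 genes (1.6%, edgeR), where 643 would be if no gene differed. The count lay below this, so 0 calls do not show that the sexes responded alike. With 1 library left out, the 206 ran from 115 without female IH replicate 2 to 547 without male IH LPS replicate 3. The median standard error over all genes was 0.26 in either sex. Every one of the 613 genes raised in the pooled comparison had a positive log2 fold change in each sex, with a median of 0.93 in males and 1.18 in females. The 251 lowered genes were negative in each sex, with medians of -0.60 and -0.84. Since the pooled call used both sexes, these signs describe the calls and do not test them.

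The counts within a sex depended on single libraries. Without male IH LPS replicate 3, 500 genes passed in males and 625 in females. The female test shares its estimate of spread and its scaling with the male libraries, and the cause of the female move was not tested. The male count was 28 without male IH LPS replicate 1, 34 without male IH LPS replicate 2, 9, 7 and 16 without male IH replicates 1, 2 and 3, and 41 and 38 without female IH replicates 1 and 3. The female count was 145 and 134 without female IH LPS replicates 1 and 3, and 95, 61 and 119 without female IH replicates 1, 2 and 3.

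Cxcl10, Birc3 and Icam1 were called in males, where 0.459% of tested genes were called raised, and the same 3 and Cd83 were called in females, where 1.94% were. In males the log2 fold changes of these genes were 6.28 ± 1.11 for Cxcl10, 5.84 ± 0.89 for Birc3 and 2.25 ± 0.42 for Icam1 (SE). In females they were 6.73 ± 1.13, 6.34 ± 0.93 and 2.91 ± 0.44 (SE), and Cd83 was at 1.34 ± 0.25 against 0.88 ± 0.25 in males. Without male IH LPS replicate 3 the targets called were 11 in males and 7 in females. A count in the vehicle libraries of both sexes, which a difference between the sexes needs, was present for 10 of the 12, not for Csf3 and Sele. The study listed the targets as low in the female IH LPS libraries that enter here, so the values of the sexes are set side by side as a description, with no test. Over these 10 the median log2 fold change was 3.28 in males and 2.85 in females, with 4 genes larger in males and 6 larger in females. Without male IH LPS replicate 3 the medians were 3.73 and 2.85, with 7 larger in males and 3 larger in females. The tally of genes thus turned with that library and the order of the medians did not. The 3 genes that changed side were Cxcl10, Irf1 and Birc3. The precision varied widely. The male minus female difference was -0.47 ± 0.35 for Cd83 and -0.66 ± 0.58 for Icam1, against 1.49 ± 2.51 for Cxcl1 and -0.44 ± 1.32 for Cxcl10 (SE, log2 scale). It was least precise for Cxcl9, at 2.29 ± 4.20 (SE), a gene with 2 counts in the 6 vehicle libraries. The difference of Cxcl10 was 0.12 ± 0.69 (SE) without male IH LPS replicate 3.

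After Nx the same comparison, made on 12 other libraries, called 1768 genes, 13.7% of those tested, with 1048 raised (8.15%) and 720 lowered (5.6%). Of the genes called after IH, 739 were called after Nx and all of these changed in the same direction, which is 85.5% of the IH calls and 41.8% of the Nx calls. A further 122 of the 125 remaining IH calls had the same sign after Nx. The 613 genes raised after IH had a median log2 fold change of 1.04 after IH and 1.19 after Nx. The 1048 genes raised after Nx had a median of 0.96 after Nx and 0.70 after IH. Each list favours the condition in which it was called. These medians include male IH LPS replicate 3 and male Nx LPS replicate 2, were not refitted without them, and are a description with no test. For no gene of the 12860 did the effect of LPS differ between IH and Nx at an FDR below 0.05 (edgeR, all 24 libraries), and DESeq2 called 0. An unadjusted p below 0.05 was found in 182 genes (1.42%, edgeR), again fewer than the 643 if no gene differed. These 0 calls do not show that the response is alike after IH and Nx. With 1 library left out, the 182 ran from 123 without male Nx replicate 1 to 464 without male Nx LPS replicate 2. With 1 Nx library left out the Nx count ran from 1179 without male Nx LPS replicate 3 to 2289 without male Nx LPS replicate 2.

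The NF-κB targets were called raised after Nx in 12 of 12 cases, where 8.15% of tested genes were. Their fitted values after Nx had a median of 4.82. The study listed the 12 genes for being lower after IH in libraries that enter here, so differences between IH and Nx are given as a description, with no test. They are given for the 9 of the 12 that had a count in each of the 4 vehicle groups, leaving out Csf3, Cxcl9 and Sele. Of these 9, 8 had the smaller value after IH in the model over all 24 libraries, Cxcl1 being the exception, and the median difference, IH minus Nx, was -0.92 on the log2 scale. Without male IH LPS replicate 3 it was -0.68, again with 8 of 9 smaller. Il6 was at 1.05 ± 0.29 after IH and 2.57 ± 0.35 after Nx (SE), a difference of -1.55 ± 0.45 (SE). Its mean went from 1.66 CPM in vehicle to 3.58 CPM in LPS libraries after IH, and from 0.835 to 5.08 CPM after Nx. The low vehicle values of Il6 thus enter this difference as well as its LPS values. Cxcl10 was at 6.51 ± 0.76 after IH and 8.41 ± 0.68 after Nx (SE), a difference of -1.91 ± 0.96 (SE), and of -1.63 ± 0.73 (SE) without male IH LPS replicate 3. The LPS libraries after Nx also included 1 near vehicle, male Nx LPS replicate 2, in which the 12 genes took 0.0988% of counts against 0.567% or more in the other 5. Whether that library had the full stimulus was likewise not tested.

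**Figure D5:**
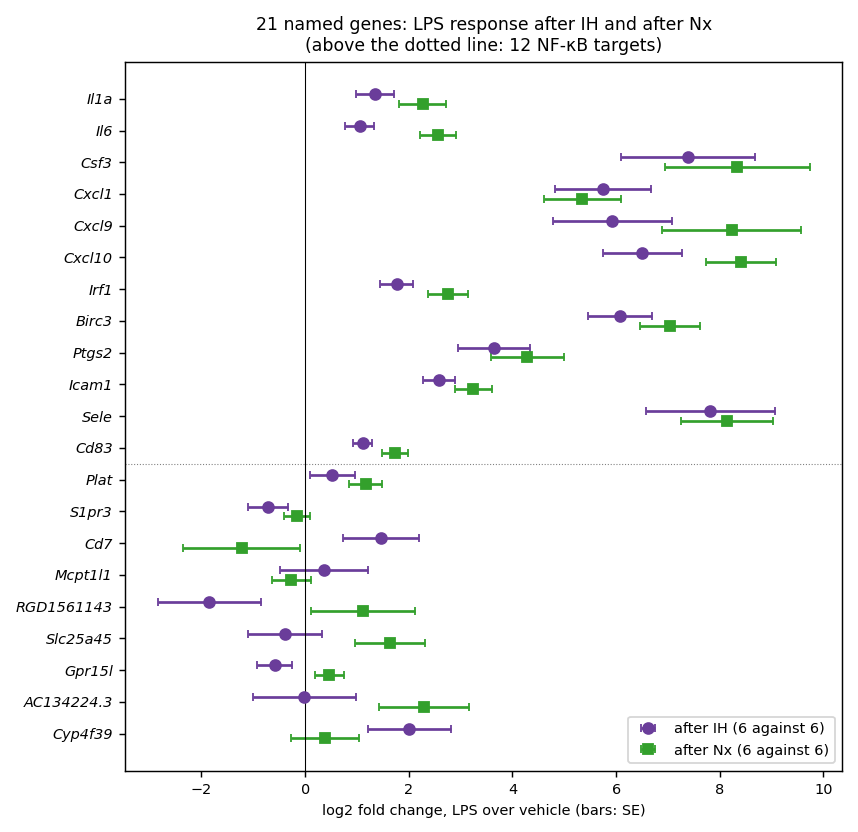
Log2 fold change of LPS over vehicle (x axis, bars are SE) for the 21 named genes after IH (circles) and after Nx (squares), 6 libraries against 6 in each. The 12 NF-κB targets above the dotted line are right of 0 in both conditions. Il6 is at 1.05 after IH and 2.57 after Nx, from vehicle means of 1.66 and 0.835 CPM.

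Of the 9 other named genes 0 were called after IH and in 0 did the groups separate, where 6.72% of tested genes were called and 3.68% separated. A count of 0 among 9 genes is near this background and is no result about them. The study listed each of them for a difference between IH and Nx in 1 sex and 1 injection group of these libraries. The IH libraries of that choice form an arm of the LPS effect here, so the values of the 9 genes, between the sexes and between IH and Nx too, are a description. Cyp4f39, a cytochrome P450, had a log2 fold change of 2.01 ± 0.80 (SE). It had between 0 and 5.19 CPM in vehicle, the highest being male replicate 2 where the other 5 had at most 0.285 CPM, and between 2.18 and 4.93 CPM in LPS libraries. Without male IH replicate 2 its log2 fold change was 4.51 ± 0.54 (SE).

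Cd7, a surface protein of T and NK cells, was at 1.47 ± 0.74 (SE). Its vehicle values were at most 3.48 CPM except for male replicate 2 at 22.6 CPM, and its LPS values ran from 2.86 to 27.4 CPM. Without male IH replicate 2 its log2 fold change was 2.66 ± 0.62 (SE). Both genes passed the FDR threshold without this vehicle library and not with it.

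Plat, tissue plasminogen activator, had between 7.79 and 30.0 CPM in vehicle and between 6.67 and 75.9 CPM in LPS libraries, a log2 fold change of 0.52 ± 0.44 (SE). S1pr3, a receptor of sphingosine 1-phosphate, was at -0.72 ± 0.38, and Gpr15l, which encodes a ligand of the receptor Gpr15, at -0.59 ± 0.35 (SE). RGD1561143 ranged from 0 to 88.2 CPM in vehicle and from 0.908 to 83.5 CPM in LPS libraries, and the groups overlapped. Slc25a45, a mitochondrial carrier, AC134224.3 and Mcpt1l1, a mast cell protease-like gene, were at -0.39 ± 0.71, -0.01 ± 0.99 and 0.37 ± 0.85 (SE). The last 2 changed sign under other settings. The male minus female difference was 3.73 ± 1.22 in Mcpt1l1, 3.66 ± 1.65 in RGD1561143 and -3.62 ± 1.66 in Cyp4f39 (SE), each in the direction that the choice of the gene favours. Without male IH LPS replicate 3, which had the highest LPS value of Gpr15l, the log2 fold change of Gpr15l in males was -2.07 ± 0.30 (SE), against -1.10 ± 0.44 (SE) with it. It passed the FDR threshold in males without that library and not with it, and the male IH vehicle libraries of its baseline are those in which the study listed it as high.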

How the data were processed

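RNA was sequenced from bead-isolated microglia of P9 rats, 3 samples in each of 8 groups. The authors aligned stranded reads with TopHat 2.1.0 to rn6, counted them per Ensembl gene with HTSeq 0.6.1 and deposited raw counts per sample. The 5 rows that name no gene (such as alignments without a unique place, 11.7 to 23.4% per sample) were left out of library sizes. The filter kept the 12860 of 32754 genes that exceeded 1 CPM in 3 or more of the 24 libraries, and TMM scaled the libraries.

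Counts were tested in R 4.3.3 with edgeR 4.0.16 (quasi-likelihood F test, Benjamini-Hochberg, FDR 0.05). The pooled effect was fitted to the 12 IH samples with sex as covariate, effects within a sex and their difference with 4 group means, the Nx effect to the 12 Nx samples, and the difference between IH and Nx to all 24 samples with 8 group means. SE is the log2 fold change over the square root of F. P-values measure the spread between samples, which the study calls biological replicates, and counting intervals and floors cover counting error only. In simulated counts for the 12860 genes, 200 were given a log2 change of 1.5. The pooled test recovered 84.5% of the changed genes and the female test 68.5%, and 7.14% and 2.84% of calls were false. The first of these lay above the FDR threshold of 0.05. Genes were simulated independently, with no sex effect and no shift shared by the genes of a library, unlike the data. The male test and the tests of a difference were not simulated.

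The planned gene lists and cell type markers, 478 genes, were not used, because 0 identifiers of the reference table could be paired with them. Names come from the 21 pairs of symbol and identifier printed in the study. This departs from the plan, by which the genes with the smallest p and largest change and members of each list would be named. All 21 are described, and the 2 unnamed genes with the smallest p in each direction. Members and lists were chosen with earlier results of these data known. The alternatives were edgeR's likelihood ratio test, DESeq2 1.42.0, RLE factors, no filter, a filter on the 12 IH samples, other sample sets, no sex covariate, a replicate block and each replicate left out. Leaving out Nx replicates for the Nx count and the values of the targets within a sex, of Csf3 and of Sele without a single library were added after the values were seen. No batch is given in the sources used here.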

Additional observations from a re-analysis of the deposited data

Results flagged for a closer look

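In 53 groups of 6 libraries, 10 had a highest or lowest library whose gap to the next, divided by the range of the group, exceeded Dixon's limit. Chance flags about 1 in 20 groups of normal values. CPM was used untransformed and some values were 0, so this rate is no yardstick for the 10. A group with a single count, as Sele in vehicle, is always flagged. The measures share libraries and are not independent. Male IH LPS replicate 2 was the highest LPS library for Csf3 (9.31 CPM, others at most 1.82), Cxcl1 (43.2 CPM, others at most 10.2) and Sele (36.1 CPM, others at most 5.55). Male IH LPS replicate 3 was the highest for Gpr15l at 18.8 CPM, with 3.75 to 6.22 CPM in the others. Among vehicle libraries, female IH replicate 2 was the lowest for Irf1 (127 CPM, others at least 152), the only one with a count of Sele (0.142 CPM) and the highest for Mcpt1l1 (65.7 CPM, others at most 22.0). It also had the lowest share of reads lying on more than a single gene, 0.289% against 0.338 to 0.362% in the others. Male IH replicate 2 was the highest vehicle library for Cd7 (22.6 CPM, others at most 3.48) and Cyp4f39 (5.19 CPM, others at most 0.285).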

How the results depend on the processing

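The pooled count of 864 became 1316 with DESeq2. The male count of 62 became 240 with edgeR's likelihood ratio test, 238 with DESeq2, 110 in a fit to all 24 samples, 25 in a fit to only the 6 male samples and 152 with no filter. The female count of 305 became 619 with the likelihood ratio test and 663 with DESeq2. The sex difference went from 0 genes to 1 with either of these tests, and the oxygen difference stayed at 0 in the 5 alternatives run. The other alternatives left each count within 1.5 times. The causes were not tested. With 1 library left out, counts ran from 537 to 1650 pooled, 7 to 500 in males, 61 to 625 in females and 1179 to 2289 after Nx, and were 0 throughout for both differences. Raised genes were 70.9% of the pooled calls and 57.5% without male IH LPS replicate 3. Without any other single library they were between 71.6% (female IH replicate 3) and 81.6% (female IH LPS replicate 1). The 251 lowered genes then numbered between 99 (female IH LPS replicate 1) and 270 (female IH LPS replicate 2).

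Il1a lost its call in a fit to all 24 samples (adjusted p = 0.0791, edgeR) and Il6 without the sex covariate (adjusted p = 0.0708, edgeR). Adjusted p over the alternatives other than leaving out a library ran from 0.00337 to 0.0791 for Il1a and from 0.0123 to 0.0708 for Il6 (edgeR and DESeq2). DESeq2 gave no adjusted p for Csf3 and called the other 11 targets. The log2 fold change of AC134224.3, -0.01, was 0.0016 with DESeq2, 0.0012 with RLE factors and 0.10 with the replicate block, and from -0.35 to 0.49 with 1 library left out. That of Mcpt1l1 was -0.10 without male IH replicate 2, in a range of -0.10 to 1.13. Neither gene was called in any of these.

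Each group numbers its replicates from 1 to 3 in the labels. Over 18 pairs of libraries with the same number the mean correlation of deviations was 0.0765 (-0.342 to 0.423), against -0.0393 for different numbers. As 9 pairs did not exceed 0.1 and the labels name no shared litter or day, the samples are treated as sharing only a number. That 8 of 12 libraries correlated best with their own number is a hint from the data and not from the design. With the replicate block the counts were 925 pooled, 48 in males and 292 in females, 12 targets were called, and both differences had 0 genes.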
